A study of Mus musculus with 16 samples.

Results

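SINE B2 elements are short interspersed repeats of rodent genomes that descend from a tRNA gene. An intact copy carries its own RNA polymerase III promoter, made of an A box and a B box near the 5′ end, and can be transcribed alone. Copies in introns are also carried along in the RNA polymerase II transcripts of their host genes. In mouse cells B2 RNA is known to bind RNA polymerase II during heat shock, and many B2 copies hold binding sites for the insulator protein CTCF.

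The B2 copies described here are the rows of the deposited repeat table that carry a B2 label and had at least 5 reads in 2 or more libraries. They number 143797 of 346646 B2 copies in the table (41.5%), and 1035541 of all 4929385 repeat copies met the same minimum. Of the B2 copies, 117296 lay within and 26501 outside the gene spans of the deposited gene table. Members were thus chosen by their read counts, and these levels are given only as a description.

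The study sequenced chromatin-associated RNA from E14TG2a mouse embryonic stem cells, a feeder-independent line, kept in LIF at 1000 U/ml with the MEK inhibitor PD0325901 at 1 µM and the GSK3 inhibitor CHIR99021 at 3 µM. There were 8 groups of 2 libraries: KDM4A del-cIDR and KDM4A FL, KDM4B del-cIDR and KDM4B FL, KDM6A del-cIDR and KDM6A FL, and KDM6B del-cIDR and KDM6B FL, where FL is the full-length protein. The labels call the shortened forms del-cIDR in the titles and del-IDR in the genotype, without spelling out the abbreviation, which usually stands for intrinsically disordered region. KDM4A and KDM4B are histone lysine demethylases that act on methylated H3K9 and H3K36, and KDM6A (UTX) and KDM6B act on methylated H3K27. All 8 groups expressed a construct ectopically, and no library without a construct was analysed here. The labels say neither whether a line was a clone or a pool nor which species the constructs came from. The labels do not say whether both libraries of a group stem from different cultures. P-values therefore measure only the spread between these libraries, which may be technical.

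Libraries held 32739117 to 54890756 gene reads and 20313223 to 47548396 repeat reads. All 10 embryonic stem cell markers had reads in every library, with a summed level of 1878 to 2836 reads per 1000000 gene reads (CPM), against 8.87 to 31.9 CPM for 8 fibroblast markers. Markers of primitive endoderm summed to 582 to 1013 CPM, of trophectoderm to 23.1 to 84.1 CPM and of neural cells to 107 to 203 CPM, and no marker of any list was at 0 in every library. Kdm6a had 435 and 415 CPM in KDM6A del-cIDR and 441 and 425 CPM in KDM6A FL libraries, against 95.7 to 156 CPM in the 12 other libraries. Kdm4b had 92.4 and 85.4 CPM in KDM4B del-cIDR and 103 and 88.2 CPM in KDM4B FL libraries, within the 74.9 to 102.9 CPM of the 12 others. Kdm4a had 300.4 and 292 CPM in KDM4A del-cIDR, above the 165 to 272 CPM of the 12 others, but 217 and 206 CPM in KDM4A FL libraries, within that range. Kdm6b had 93.02 and 96.4 CPM in KDM6B del-cIDR, and 78.1 and 85.2 CPM in KDM6B FL, against 69.1 to 81.4 CPM in the others. So the counts do not show the KDM4B constructs or the KDM4A FL construct, nor that of 1 KDM6B FL library, and the groups are named as labelled. Reads could not be given to near-identical copies, since only unique alignments were counted, and young B2 copies are therefore under-counted.

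A pair of copies shows where the internal promoter letters lie. They reach with their own 5′ end into the RefSeq promoter window of a gene and contain the B box letters. The deposited table is on GRCm39, so copies were placed in these windows only by gene symbol, strand and distance from the gene start. Each is printed 5′ to 3′ on the strand of the B2 copy from the RefSeq promoter table (GRCm38.p6), with matches to the A box and B box consensus in capitals.
Bspry, chr4:62479812-62479898, 250 to 164 bases before the gene start: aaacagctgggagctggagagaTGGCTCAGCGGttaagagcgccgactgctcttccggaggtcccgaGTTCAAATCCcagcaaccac
Zpr1, chr9:46272873-46273015, 191 to 49 bases before the gene start: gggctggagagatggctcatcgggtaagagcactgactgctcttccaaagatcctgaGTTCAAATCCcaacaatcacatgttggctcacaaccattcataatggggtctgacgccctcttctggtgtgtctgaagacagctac
The copy at Bspry matched both boxes and averaged 1.34 CPM over the 16 libraries. The copy at Zpr1 matched only the B box letters and averaged 0.0559 CPM. On either strand the A box letters occur in 2.42% and the B box letters in 1.14% of 32851 RefSeq promoter windows of 300 bases. A match is a description of letters and no measured site.

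Most B2 reads came from copies inside genes. B2 copies took 11.99% to 12.91% of all repeat reads in each library. Members had a median length of 182 bases and held 98.6% of all B2 reads. The 1% of copies with the most reads held 22.4% of B2 reads, and the highest single copy held 0.0771%. No library had a read on 100743 copies, which were 15.2% of the copies inside and 46.3% of those outside gene spans. Inside genes the median member had 14.8 reads per library on average, and outside genes 5.25 reads. Of the members inside genes 6.76% overlapped an exon. The strand opposite to the host gene held 58.2% of them, close to the 57.3% among all B2 copies inside genes. Just short of the rule, 9695 copies inside and 8314 outside genes had 5 reads in exactly 1 library, with a median of 21 and 19 reads over all libraries. Just within it, 5883 copies inside and 4090 outside had 5 reads in exactly 2 libraries, with a median of 32 and 30 reads.

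The share of B2 reads on copies outside genes set KDM6B del-cIDR apart from the other groups. It was 12.46% and 12.47% in KDM6B del-cIDR, against 8.70% and 9.81% in KDM6B FL libraries. Both KDM6B del-cIDR libraries lay above all 14 others, which ranged from 8.22% to 9.81%. KDM4A del-cIDR had 8.22% and 8.65%, against 9.13% and 9.21% in KDM4A FL libraries. In KDM4B del-cIDR the share was 9.53% and 9.67%, against 9.16% and 9.38% in KDM4B FL. For KDM6A it was 9.52% and 9.21% in del-cIDR, against 8.92% and 9.004% in FL libraries. The pairs of libraries did not overlap for any of the 4 demethylases, yet the KDM4A difference had the opposite sign to those of KDM4B, KDM6A and KDM6B. Over the 4 demethylases together the mean difference was 0.80 percentage points, which an exact two-sided permutation test within demethylases did not separate from 0 (p = 0.17, adjusted p = 0.21 over 5 relations). For a single demethylase, 2 against 2 libraries cannot go below p = 0.33 in an exact permutation test.

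Within libraries, the ratio of outside to inside B2 reads rose with the deletion in KDM6B and fell in KDM4A. This ratio needs no scaling between libraries. The log2 ratio averaged 0.48 higher in KDM6B del-cIDR than in KDM6B FL (SE 0.053, limma, adjusted p = 4.5e-05, 56.4% of 39 families called). In KDM4A it was lower by 0.13 in del-cIDR libraries, a log2 difference of -0.13 (SE 0.053, limma, adjusted p = 0.042, 82.1% of families called). That call rests on single libraries and on copies near genes. Without KDM4A del-cIDR replicate 1 the difference was -0.09 (adjusted p = 0.21), without KDM4A FL replicate 1 -0.14 (adjusted p = 0.092), and without KDM4A FL replicate 2 -0.13 (adjusted p = 0.13). With gene spans extended by 5 kb it was 0.06 (adjusted p = 0.46). KDM4B (0.06, adjusted p = 0.44, 35.9% called) and KDM6A (0.07, adjusted p = 0.56, 0% called) did not pass. Other families differed in the same directions. In KDM4A the difference was -0.56 for Alu, -0.44 for B4 and -0.52 for L1 copies, all larger falls than that of B2. In KDM6B it was 0.19 for Alu, 0.24 for B4 and 0.49 for L1 copies, and B4 did not pass (limma, adjusted p = 0.054).

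The summed level of B2 copies inside genes was lower with the deletion in KDM6B. The sums were 56517 and 56686 CPM in KDM6B del-cIDR, against 72859 and 71732 CPM in KDM6B FL libraries. Both KDM6B del-cIDR values were the lowest of all 16 libraries. The log2 fold change was -0.35 (SE 0.020, edgeR quasi-likelihood, adjusted p = 3.9e-08, 50.9% of 114 family and position sums called), and its sign held under every scaling tried, down to -0.05 when libraries were scaled by TMM over the repeat sums themselves. Outside genes the sums were 8047 and 8076 CPM in KDM6B del-cIDR, against 6946 and 7800 CPM in KDM6B FL libraries. The log2 fold change of 0.13 outside genes (SE 0.051, adjusted p = 0.053) did not pass, and it was -0.25 under ERCC scaling. Without KDM6B FL replicate 2 it was 0.21 (adjusted p = 0.0027).

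In KDM4A, B2 sums were lower in del-cIDR libraries on both sides. Inside genes they were 78793 and 80886 CPM in KDM4A del-cIDR, against 87738 and 89047 CPM in KDM4A FL libraries. The log2 fold change was -0.15 (SE 0.020, edgeR, adjusted p = 3.1e-05, 77.2% of sums called), but it was 0.33 when libraries were scaled by TMM over the repeat sums. Outside genes KDM4A del-cIDR had 7054 and 7663 CPM, against 8816 and 9038 CPM in KDM4A FL libraries. That difference was -0.28 (SE 0.051, adjusted p = 0.00035), and 0.20 with TMM over the repeat sums. It was -0.10 and no longer called (adjusted p = 0.26) once copies within 5 kb of genes were counted as inside.

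KDM4B and KDM6A gave smaller differences. Inside genes KDM4B del-cIDR had 89490 and 91971 CPM, against 97602 and 99076 CPM in KDM4B FL libraries. The log2 fold change was -0.12 (SE 0.020, edgeR, adjusted p = 0.00039, 52.6% of sums called), and 0.07 with TMM over the repeat sums. Outside genes the KDM4B value was -0.06 (adjusted p = 0.35), with 9427 and 9851 CPM in KDM4B del-cIDR and 9837 and 10251 CPM in KDM4B FL libraries, which overlapped. KDM6A del-cIDR had 102263 and 104774 CPM inside genes, against 98755 and 98570 CPM in KDM6A FL libraries. The KDM6A log2 fold change of 0.07 passed narrowly (SE 0.020, adjusted p = 0.037, 16.7% of sums called), turned to -0.15 with ERCC scaling and was lost without KDM6A del-cIDR replicate 2 (0.05, adjusted p = 0.25), without KDM6A FL replicate 1 (adjusted p = 0.13) and without KDM6A FL replicate 2 (adjusted p = 0.16). Outside genes KDM6A del-cIDR had 10754 and 10622 CPM, against 9671 and 9753 CPM in KDM6A FL libraries. The log2 fold change of 0.14 (SE 0.051, adjusted p = 0.086) was -0.08 with ERCC scaling. This sum holds the copy of highest mean level outside genes, described below, whose KDM6A libraries differed widely.

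All levels here are relative to gene reads. ERCC control RNAs, which the labels do not mention, took a larger share of gene reads in each del-cIDR group, with 1.06% to 1.12% in KDM4A del-cIDR against 0.78% to 0.80% in KDM4A FL libraries. The shares were 0.68% to 0.70% in KDM4B del-cIDR against 0.58% to 0.59% in KDM4B FL, and 0.81% in both KDM6A del-cIDR against 0.70% to 0.73% in KDM6A FL libraries. In KDM6B del-cIDR they were 1.52% to 1.55%, against 1.15% to 1.24% in KDM6B FL. Scaling by ERCC reads moves every log2 fold change below by -0.65 for KDM4A, -0.19 for KDM4B, -0.21 for KDM6A and -0.38 for KDM6B. TMM over the repeat sums moves them by 0.48, 0.19, -0.06 and 0.31 in the same order. How much RNA a cell held was not tested.

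**Figure D1:**
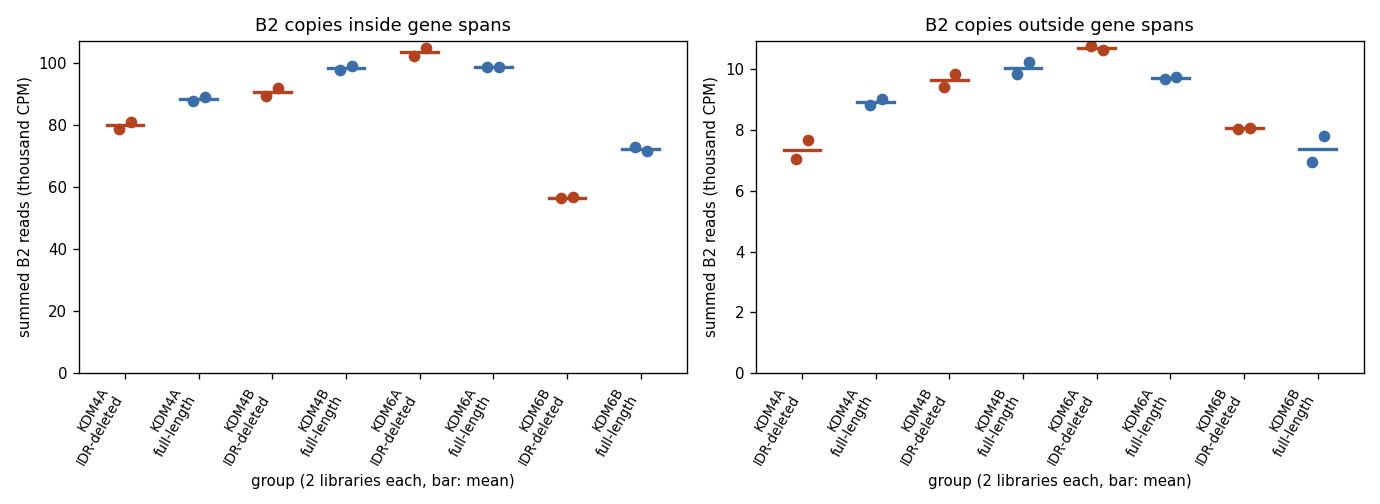
Summed reads of all B2 copies inside (left) and outside (right) gene spans in units of 1000 CPM, by group, with a point per library and a bar for the mean of 2. Both KDM6B IDR-deleted libraries are the lowest inside genes, at 56517 and 56686 CPM, but not outside genes.

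By distance from genes, the KDM6B values were negative in introns and exons and positive far from genes on the gene scale. The 346646 copies were split into 11323 in exons, 180899 in introns, 52454 outside but within 5 kb of a gene, 81437 at 5 to 50 kb and 20533 farther away. In KDM6B the log2 fold change was -0.37 in introns (SE 0.021) and -0.25 in exons (SE 0.020), both past the threshold (edgeR, 41.0% of 256 family and class sums called). It was 0.03 within 5 kb (adjusted p = 0.59). At 5 to 50 kb it was 0.31 (SE 0.079, adjusted p = 0.011), and farther than 50 kb it was 0.28 (SE 0.059, adjusted p = 0.0015); both are smaller than the ERCC shift, so their sign turns under that scaling. KDM4A gave another order. Its value was -0.38 within 5 kb (SE 0.040), -0.05 at 5 to 50 kb (adjusted p = 0.59) and -0.57 farther away (SE 0.059), with 75.0% of class sums called. The KDM4A value within 5 kb and the KDM6B value in exons are smaller in size than the shift of TMM over the repeat sums. Their sign turns under that scaling. In KDM4B the sums farther than 50 kb fell by 0.50 on the log2 scale (SE 0.059, 49.2% of class sums called), while those within 5 kb were at -0.01 (adjusted p = 0.79). KDM6A sums within 5 kb were at 0.16 (SE 0.040, adjusted p = 0.020, 11.7% of class sums called), and smaller than the ERCC shift. They hold the copy of highest mean level outside genes, described below, whose KDM6A libraries differed widely. The class value without that copy was not computed. The far class held 219 and 236 CPM in KDM4A del-cIDR, against 332 and 345 CPM in KDM4A FL libraries, and 268 and 289 CPM in KDM4B del-cIDR, against 382 and 406 CPM in KDM4B FL libraries.

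**Figure D2:**
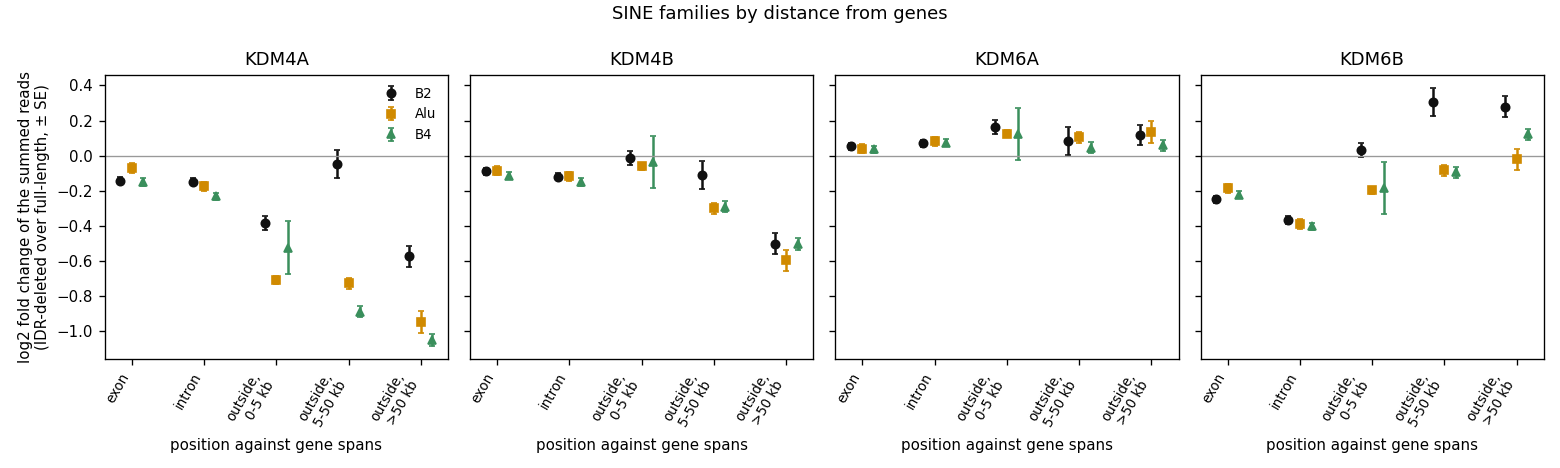
Log2 fold change of summed reads, IDR-deleted over full-length, with its SE, for B2, Alu and B4 copies in 5 position classes and 4 demethylases. Under gene TMM scaling, B2 at 5 to 50 kb from genes is at -0.05 in KDM4A and 0.31 in KDM6B, above Alu (-0.73 and -0.08) and B4 (-0.89 and -0.09).

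Alu copies (the rodent B1 family) and B4 copies are the SINE families most like B2, and they separate from B2 mainly outside genes. Inside genes the values lay closer together, with -0.15 for B2, -0.16 for Alu and -0.22 for B4 in KDM4A, and -0.35 for B2, -0.36 for Alu and -0.38 for B4 in KDM6B. TMM over the repeat sums turns those of KDM4A. Outside genes the KDM4A log2 fold change was -0.28 for B2, -0.72 for Alu and -0.66 for B4. In KDM6B it was 0.13 for B2, -0.17 for Alu and -0.15 for B4. The log2 ratio of B2 to Alu reads outside genes was on average 0.21 higher in del-cIDR libraries (exact stratified permutation test, two-sided, p = 0.0046, adjusted p = 0.012 over 5 relations). The mean difference was 0.44 for KDM4A, 0.08 for KDM4B, 0.02 for KDM6A and 0.30 for KDM6B. KDM6A libraries overlapped, with 0.52 and 0.46 in del-cIDR and 0.48 and 0.47 in FL, and those of the others did not. Against B4 the mean was 0.20 (exact permutation p = 0.0046, adjusted p = 0.012), with 0.39, 0.08, 0.04 and 0.28 in the same order, and KDM6A libraries overlapped here as well. The smallest p these 1296 relabelings allow is 0.0015. B4 sums outside genes were higher in replicate 2 of every group, which the permutation tests do not model. Inside genes B2 over Alu differed by 0.0019 (exact permutation p = 0.77), and B2 over B4 by 0.034 (exact permutation p = 0.0077, adjusted p = 0.013). These ratios are taken within a library and do not change with scaling.

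Features of a B2 copy went with the size of the difference, given here as ratios of sums without a test. In KDM4A the log2 ratio was -0.21 for copies on the strand opposite to their host gene and -0.07 for those on the same strand. Counting ignored strand, so a read cannot be given to the copy or to the host transcript. Within 5 kb of a gene, upstream copies had 0.01 and downstream copies -0.55 in KDM4A, and 0.32 and -0.10 in KDM6B. Outside genes, copies of at least 150 bases had -0.20 and shorter ones -0.64 in KDM4A, and 0.18 and -0.15 in KDM6B. Downstream copies carried 0.159 CPM each on average over all libraries, and upstream copies 0.0643 CPM.

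Of the 143797 members, 109296 had enough reads for a test (94508 inside and 14788 outside genes) and 34501 did not. Through 1 group alone 1173 members met the rule. At least 5 reads in both libraries of all 8 groups were found for 56976 members. Across the 8 groups, 41607 members inside genes (44.0%) and 6696 outside (45.3%) differed (edgeR F-test, adjusted p under 0.05). Over all repeat copies 45.9% inside and 53.0% outside genes differed. The B2 share inside genes is near that background, and the share outside genes lies below it.

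KDM4A had the most single copies past the threshold. Inside genes 4325 B2 copies rose and 10513 fell in KDM4A del-cIDR, which is 4.58% and 11.1% of those tested, against 3.49% and 13.6% of all repeat copies inside genes. Outside genes 895 rose and 2489 fell, which is 6.05% and 16.8%, against 1.58% and 27.2% of all copies outside. In KDM6B del-cIDR, 226 inside copies rose and 4100 fell, against backgrounds of 0.19% and 4.15%. Outside genes 222 rose (1.501%) and 180 fell (1.22%), against 0.979% and 1.26% of all copies. In KDM4B del-cIDR, 870 rose and 1882 fell inside genes, with backgrounds of 0.885% and 2.78%. Outside genes 342 rose (2.31%) and 320 fell (2.16%), with backgrounds of 1.62% and 7.37%. In KDM6A del-cIDR, 26 rose and 16 fell inside genes, with backgrounds of 0.073% and 0.033%. Outside genes 2 rose and 14 fell, with backgrounds of 0.225% and 0.0592%. The split depends on scaling. With ERCC scaling, rises made up 3.0% of the KDM4A calls inside genes instead of 29.1%, and 7.6% instead of 26.4% outside. In KDM4B they made up 10.2% instead of 31.6% inside and 31.0% instead of 51.7% outside. In KDM6A they made up 2.8% instead of 61.9% inside and 0% instead of 12.5% outside, and in KDM6B 0.64% instead of 5.2% inside and 8.3% instead of 55.2% outside. Leaving out any 1 of the libraries compared gave 9255 to 9755 calls inside and 2179 to 2307 outside in KDM4A, 1117 to 1315 and 295 to 352 in KDM4B, 6 to 12 and 4 to 7 in KDM6A, and 1553 to 2593 and 89 to 329 in KDM6B.

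The comparisons of different demethylases share no library. Outside genes, 170 copies rose in both KDM4A and KDM4B del-cIDR, which is 18.99% of the KDM4A and 49.7% of the KDM4B rises. Of the rises in KDM6B, 129 also rose in KDM4A (58.1% of the KDM6B and 14.4% of the KDM4A rises). Falls outside genes shared by KDM4A and KDM4B numbered 245, or 9.84% of the KDM4A and 76.6% of the KDM4B falls. Inside genes KDM4A and KDM4B shared 334 rises (38.4% of the KDM4B rises) and 1198 falls (63.7% of the KDM4B falls). In KDM4A 16.8% of B2 copies tested and 27.2% of all repeat copies tested outside genes fell. Overlaps were not counted over all repeat copies, so these shares cannot be read as particular to B2 copies.

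The copy with the smallest p outside genes lies 3548 bases upstream of Dppa5a, a pluripotency marker of these cells, at chr9:78279007-78279177 (GRCm39). It had 86.8 and 81.3 CPM in KDM4A del-cIDR, against 11.1 and 7.79 CPM in KDM4A FL libraries. In KDM4B del-cIDR it had 31.3 and 26.7 CPM, against 6.28 and 4.97 CPM in KDM4B FL. In KDM6B del-cIDR it had 88.0 and 83.4 CPM, against 42.7 and 55.4 CPM in KDM6B FL. KDM6A went the other way, with 6.01 and 5.64 CPM in del-cIDR, against 10.3 and 10.0 CPM in FL libraries. The pairs did not overlap in any of the 4 comparisons. The log2 fold changes were 3.15, 2.36, 0.80 and -0.80 for KDM4A, KDM4B, KDM6B and KDM6A (edgeR, adjusted p = 1.2e-28, 2.7e-22, 1.2e-05 and 0.00025).

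A copy in an intron of She, a gene for an SH2-domain adaptor, followed a similar order at chr3:89749822-89750029. It had 72.3 and 111 CPM in KDM4A del-cIDR, against 7.22 and 8.56 CPM in KDM4A FL libraries. KDM4B del-cIDR had 19.7 and 25.8 CPM, against 5.30 and 7.58 CPM in KDM4B FL. In KDM6B the libraries overlapped, with 46.5 and 49.0 CPM in del-cIDR and 27.7 and 52.7 CPM in FL. The log2 fold change was 3.54 in KDM4A and 1.82 in KDM4B (adjusted p = 2.2e-24 and 2.6e-12), and 0.25 in KDM6B (adjusted p = 0.43). The gene She itself went the other way in KDM4A, with a log2 fold change of -0.48 (adjusted p = 1.6e-05) and mean levels of 17.9 CPM in KDM4A del-cIDR and 24.9 CPM in KDM4A FL.

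Another pair of intronic copies with the smallest p across groups behaved alike. One lies in Snapc3, which encodes a subunit of the complex that starts snRNA transcription, at chr4:83347342-83347531. It had 31.4 and 36.5 CPM in KDM4A del-cIDR, against 2.82 and 2.21 CPM in KDM4A FL libraries, and its log2 fold change was 3.76 (SE 0.17, adjusted p = 1.9e-26). KDM6B del-cIDR had 18.004 and 17.97 CPM, against 7.74 and 11.8 CPM in KDM6B FL. The gene Snapc3 was at -0.20 in KDM4A and -0.22 in KDM6B. The other lies in Pcolce2, the gene of a procollagen processing factor, at chr9:95552450-95552595. It had 43.6 and 45.5 CPM in KDM6B del-cIDR, against 14.1 and 18.1 CPM in KDM6B FL, and 34.1 and 28.9 CPM in KDM4A del-cIDR, against 8.04 and 4.88 CPM in KDM4A FL libraries. The copy rose in KDM4A by a log2 fold change of 2.29 while the gene Pcolce2 fell by 1.29 on the log2 scale. In KDM6B the gene rose too, by a log2 fold change of 0.46 (edgeR, adjusted p = 0.00014).

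Other copies were lower with the deletion in both KDM4 proteins. A copy 7701 bases downstream of N4bp1, at chr8:87526876-87527087, had 5.30 and 6.34 CPM in KDM4A del-cIDR, against 34.6 and 38.2 CPM in KDM4A FL libraries. It had 7.91 and 7.79 CPM in KDM4B del-cIDR, against 44.8 and 45.6 CPM in KDM4B FL. The log2 fold changes were -2.65 and -2.52 (adjusted p = 5.2e-22 and 1.8e-21), while KDM6A (-0.07) and KDM6B (-0.06) did not pass. A copy 4539 bases downstream of Slco1c1, the gene of an organic anion transporter, at chr6:141520442-141520653, was lower in KDM4A del-cIDR (0.437 and 0.993 CPM, against 9.27 and 5.89 CPM in KDM4A FL). It was higher in KDM6B del-cIDR, with 2.48 and 3.00 CPM against 0.347 and 0.203 CPM in KDM6B FL. The log2 fold changes were -3.43 in KDM4A, -2.16 in KDM4B and 3.30 in KDM6B (adjusted p = 4.8e-17, 1.5e-13 and 3.4e-12).

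**Figure D3:**
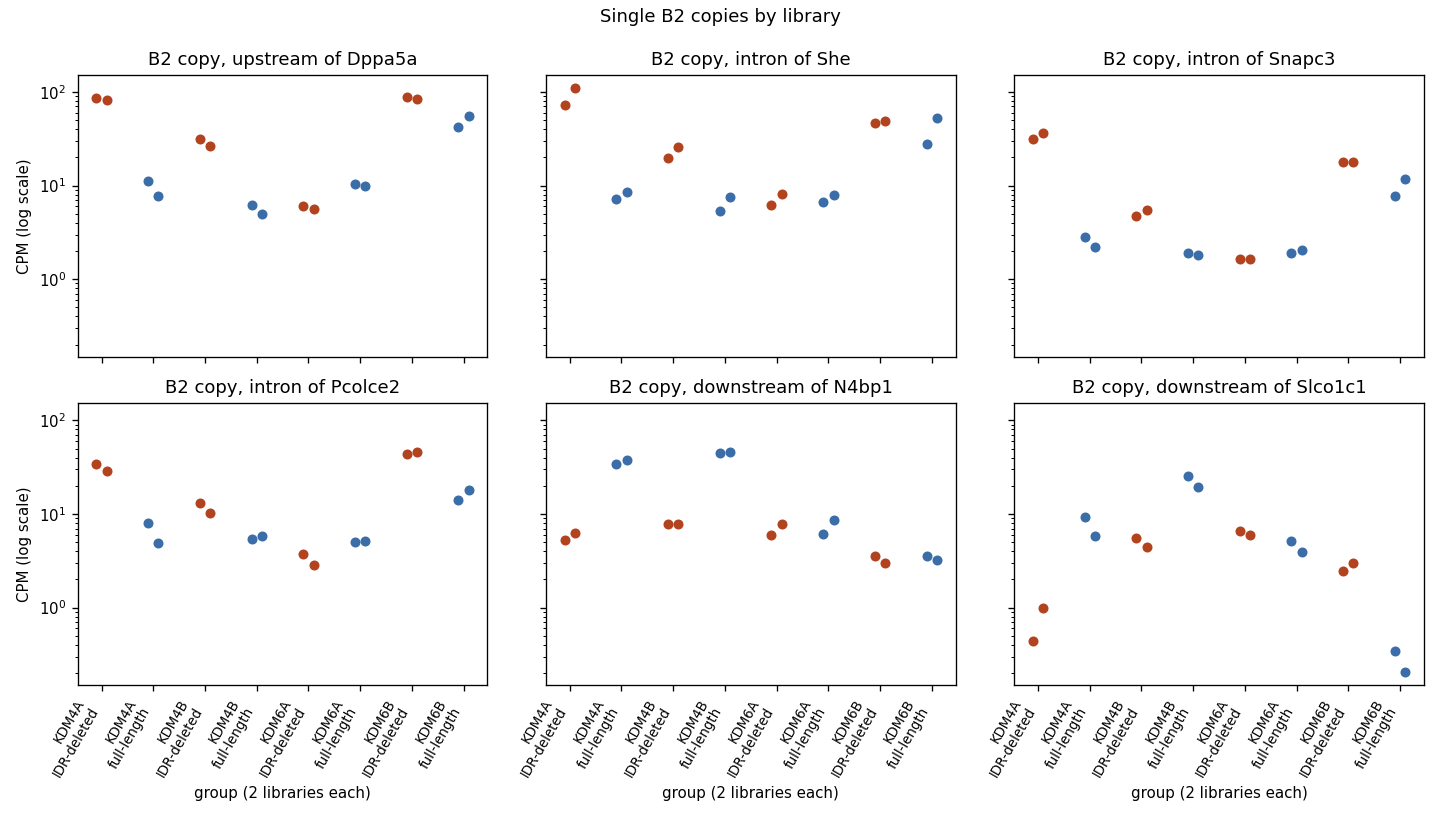
CPM of 6 single B2 copies in every library on a log axis, by group. The copies at Dppa5a, She, Snapc3 and Pcolce2 are higher in KDM4A and KDM4B IDR-deleted than in full-length libraries, and those downstream of N4bp1 and Slco1c1 are lower.

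The members with the highest mean level were of several kinds. Inside genes they lie in an intron of Platr16, a noncoding RNA named for pluripotent cells, in an exon of the imprinted noncoding RNA Rian, and in an intron of Jade1. The Platr16 copy had 31.4 and 34.1 CPM in KDM4A del-cIDR, against 78.7 and 80.2 CPM in KDM4A FL libraries, a log2 fold change of -1.28 (adjusted p = 2.0e-17). The Rian copy had 72.1 and 65.1 CPM in KDM4A del-cIDR, against 41.0 and 42.1 CPM in KDM4A FL, and 18.04 and 17.7 CPM in KDM6A del-cIDR, against 29.4 and 26.0 CPM in KDM6A FL. The Jade1 copy had 58.2 and 52.2 CPM in KDM6A del-cIDR, against 38.4 and 33.7 CPM in KDM6A FL. Outside genes, the copy 2263 bases upstream of Katnal2 had 17.1 and 19.8 CPM in KDM4A del-cIDR, against 42.7 and 40.6 CPM in KDM4A FL. The copy with the highest mean of all outside genes, at chr17:40159793-40159985 and 75 bases upstream of a gene without a symbol, varied between libraries of 1 group. It had 485 and 143 CPM in KDM6A del-cIDR and 135 and 5.60 CPM in KDM6A FL, and 167 and 48.6 CPM in KDM6B del-cIDR, against 4.88 and 9.26 CPM in KDM6B FL. Its KDM4B values were 4.96 and 6.003 CPM in del-cIDR, against 3.62 and 62.6 CPM in FL. Its log2 fold change was -2.59 in KDM4B (adjusted p = 0.0033) and 0.60 without KDM4B FL replicate 2.

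The largest folds past the threshold often rest on a group with few reads. Outside genes, a copy 8770 bases downstream of AC154442.1 had 67 reads in KDM4A del-cIDR and 0 in KDM4A FL, so it was at least 32.5-fold higher against a floor of 3 reads over the group. A copy 416 bases upstream of a gene without a symbol on chromosome 7 had 74 reads in KDM4A del-cIDR and 1 in KDM4A FL, a ratio of 108 with a 95% counting interval of 18.7 to 4305. A copy 30890 bases downstream of Sh3rf1 had 4.92 and 5.51 CPM in KDM4A del-cIDR, against 0.0466 and 0.0809 CPM in KDM4A FL libraries. Inside genes, a copy in Tlk2, the gene of a chromatin assembly kinase, had 92 reads in KDM4A del-cIDR and 3 in KDM4A FL, a ratio of 44.6 with an interval of 14.8 to 220. A copy in an intron of Wdr95 had 7.16 and 5.45 CPM in KDM4A del-cIDR, against 0.373 and 0.0202 CPM in KDM4A FL. A copy in Gm3294 had 3.64 and 7.81 CPM in KDM4A del-cIDR, against 0.233 and 0.283 CPM in KDM4A FL. Both reads of a pair entered the counts, so bounds and intervals cover counting error only and are too narrow.

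Falls in KDM4A del-cIDR reached copies without any read. A copy in Olfr837, an olfactory receptor gene, had 0 reads in KDM4A del-cIDR and 108 in KDM4A FL, and was at least 24.8-fold lower. A copy in an intron of Lmbr1 had 0 and 105 reads in the same order and was at least 24.1-fold lower. A copy in Slco1c1 had 1 and 105 reads, a ratio of 72.2 with an interval of 12.7 to 2880. Outside genes, the copies 11821 bases downstream of 1110038F14Rik, 1585 bases upstream of Gm48023 and 6196 bases downstream of Snx10 had 3, 2 and 2 reads in KDM4A del-cIDR, against 156, 104 and 102 reads in KDM4A FL. In KDM4B del-cIDR, a copy in Sult2a-ps3 had 0 reads, against 92 in KDM4B FL, and was at least 37.8-fold lower. Copies in Cyp2b23 (0.0833 CPM in KDM4B del-cIDR, 2.31 CPM in KDM4B FL) and Etl4 (0.176 and 4.18 CPM in the same order) had log2 fold changes of -4.76 and -4.56. Outside genes, the copies by Parp11 and Gm36752 had 2 and 8 reads in KDM4B del-cIDR, against 98 and 129 reads in KDM4B FL. The Gm48023 copy fell in both, with 0.443 and 0.201 CPM in KDM4B del-cIDR against 5.96 and 6.34 CPM in KDM4B FL.

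Rises in KDM4B del-cIDR were smaller in level. The first by fold, in an intron of Frmd8, came from 1 library, with 36.9 and 0.141 CPM in KDM4B del-cIDR, against 0.0977 and 0.0789 CPM in KDM4B FL. Copies in CT025659.2 (1.57 CPM in KDM4B del-cIDR, 0.154 CPM in KDM4B FL) and Dner (1.32 and 0.178 CPM in the same order) followed. Outside genes the 3 largest were 39831 bases downstream of Chd1l, 4394 bases upstream of Mrps36 and 784 bases upstream of a gene without a symbol, with log2 fold changes of 3.31, 3.24 and 2.91. The Mrps36 copy also rose in KDM4A (2.62) and KDM6B (1.19).

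In KDM6B del-cIDR, a copy in an intron of Shc3 had 2.11 and 2.73 CPM, against 0.390 and 0.813 CPM in KDM6B FL, and it also rose in KDM4A (3.70) and KDM4B (3.02) on the log2 scale. Copies in Cldn18, a tight junction gene, and Vmn2r56 rose by log2 fold changes of 2.21 and 2.03. Outside genes a copy 7237 bases downstream of 1700036A12Rik had 1.91 and 1.55 CPM in KDM6B del-cIDR, against 0.260 and 0.316 CPM in KDM6B FL. The largest falls inside genes were in Cnot2, Mllt10 and Pcbp2, with log2 fold changes of -2.51, -2.32 and -2.27. The Pcbp2 copy, in the gene of an RNA-binding protein, also fell in KDM4A (-2.22) and KDM4B (-1.10). Outside genes the falls near Gm47673, Actn1 and Pelp1 had values of -2.11, -1.81 and -1.76.

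Few copies were named for KDM6A, and most of their calls rest on all 4 libraries: leaving out any 1 of them ended 10 or 11 of the 15 calls on named copies. Inside genes, copies in Zfp978, Hmga2 and Cdh4 rose in KDM6A del-cIDR by log2 fold changes of 3.00, 2.04 and 1.95, and copies in Fry, Neat1 and Aldh1l1 had values of -1.81, -1.28 and -1.22, all past the threshold. The Hmga2 copy, in the gene of an architectural chromatin protein, had 1.56 and 1.27 CPM in KDM6A del-cIDR, against 0.316 and 0.371 CPM in KDM6A FL. Outside genes the rises were near Gm38324 (1.73) and on chromosome 7 upstream of a gene without a symbol (0.94). The falls were near Gm21742 on chromosome Y (-3.39) and at 2 copies of an unplaced scaffold (-1.65 and -1.26). The Gm21742 value came from 1 library, with 0.156 and 0.154 CPM in KDM6A del-cIDR, against 0.203 and 3.14 CPM in KDM6A FL.

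Copies inside genes moved partly with their hosts. Over 94155 tested copies in 11799 genes, the log2 fold changes of copy and host gene had a Pearson correlation of 0.45 for KDM4A, 0.48 for KDM4B, 0.27 for KDM6A and 0.21 for KDM6B. These points share libraries and host genes and are no independent replicates. Of the copies called, 69.1% in KDM4A, 86.2% in KDM4B, 83.3% in KDM6A (of only 42) and 46.4% in KDM6B lay in a gene called in the same direction. This share was not formed over all tested copies, and it depends on how many genes were called. Genes rose and fell at 24.6% and 25.9% in KDM4A, 18.6% and 17.6% in KDM4B, 8.30% and 8.65% in KDM6A, and 9.89% and 10.7% in KDM6B. The shares are therefore not compared between demethylases. The median copy lay below its gene by a log2 difference of -0.28 in KDM4A, -0.06 in KDM4B and -0.37 in KDM6B, and was 0.03 in KDM6A. Reads of exonic copies can enter both tables.

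A small class of copies stood out from its surroundings. For each member the reads per base were divided by those of the other repeat copies within 5 kb. The median of this density ratio was 1.04, and it was at least 30 in 1922 members, which are 522 inside genes (0.445%) and 1400 outside (5.28%). The class was formed after values had been seen, so it is described without a test. The named copies at Dppa5a, She and Pcolce2 have ratios of 37.5, 108 and 57.3, and those at Snapc3 and Slco1c1 19.03 and 1.96.

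Copies of this class were higher in the del-cIDR libraries of 3 demethylases. With the density taken from the 4 KDM6A libraries alone, the class held 939 copies outside and 335 inside genes. Its copies still met the minimum of reads over all 16 libraries, so the choice is not independent of the libraries compared. Outside genes the copies of this class summed to 661 and 808 CPM in KDM4A del-cIDR, against 292 and 312 CPM in KDM4A FL libraries. KDM4B del-cIDR had 350 and 419 CPM, against 195 and 251 CPM in KDM4B FL. KDM6B del-cIDR had 831 and 869 CPM, against 364 and 612 CPM in KDM6B FL. The libraries of each pair did not overlap, and in each of the 8 groups replicate 2 lay above replicate 1. The log2 ratios of the mean sums were 1.28 in KDM4A, 0.79 in KDM4B and 0.80 in KDM6B, and 0.63, 0.60 and 0.43 with ERCC scaling. In KDM6A, whose libraries gave the density, the log2 ratio was 0.07. Inside genes the ratios were 0.77, 0.31 and 0.60, and 0.12, 0.12 and 0.23 with ERCC scaling. Without its highest copy the class outside genes gave 1.30, 0.81 and 0.79.

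With the class formed from all 16 libraries the log2 ratios outside genes were 1.48 for KDM4A, 0.88 for KDM4B, 0.02 for KDM6A and 0.83 for KDM6B. Here the deletion libraries took part in the choice through the density as well. Copies with a ratio under 10 had -0.59, -0.12, 0.15 and -0.04, and without their highest copy -0.59, -0.11, 0.11 and -0.07. So the lower KDM4A sum outside genes and the higher sum of the dense copies stand side by side in the same libraries. Of 925 dense copies tested outside genes, 339 rose and 6 fell for KDM4A, 110 rose and 0 fell for KDM4B, 0 rose and 2 fell for KDM6A, and 101 rose and 1 fell for KDM6B. Over all repeat copies outside genes, rises were 1.58%, 1.62%, 0.225% and 0.979% in that order, and falls 27.2%, 7.37%, 0.0592% and 1.26%. Of 377 tested inside genes, 130, 53, 0 and 41 rose and 9, 4, 1 and 2 fell, where 3.49%, 0.885%, 0.073% and 0.19% of all repeat copies inside genes rose and 13.6%, 2.78%, 0.033% and 4.15% fell. High reads in the libraries compared helped to choose the dense copies, which favours rises or falls among them. The shares over all repeat copies carry no such choice, so these counts are a description only. In 272 dense copies whose host gene was tested, the median copy lay above its gene by 1.19 for KDM4A, 0.75 for KDM4B, 0.07 for KDM6A and 0.54 for KDM6B. The same bound held 123 Alu copies outside genes, with log2 ratios of 0.25, -0.30, 0.19 and 0.18 in that order, and of -0.41, -0.49, -0.03 and -0.19 under ERCC scaling. A single Alu copy weighed on these values, which without it were 0.82, 0.21, 0.04 and 0.35 on the gene scale. It also held 48 B4 copies outside genes, with 0.81, 0.42, 0.10 and 0.18, and 0.18, 0.23, -0.09 and -0.17 under ERCC scaling. Without its highest copy B4 gave 0.13, -0.20, -0.13 and 0.40, and B2 gave 1.40, 0.83, 0.05 and 0.83.

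**Figure D4:**
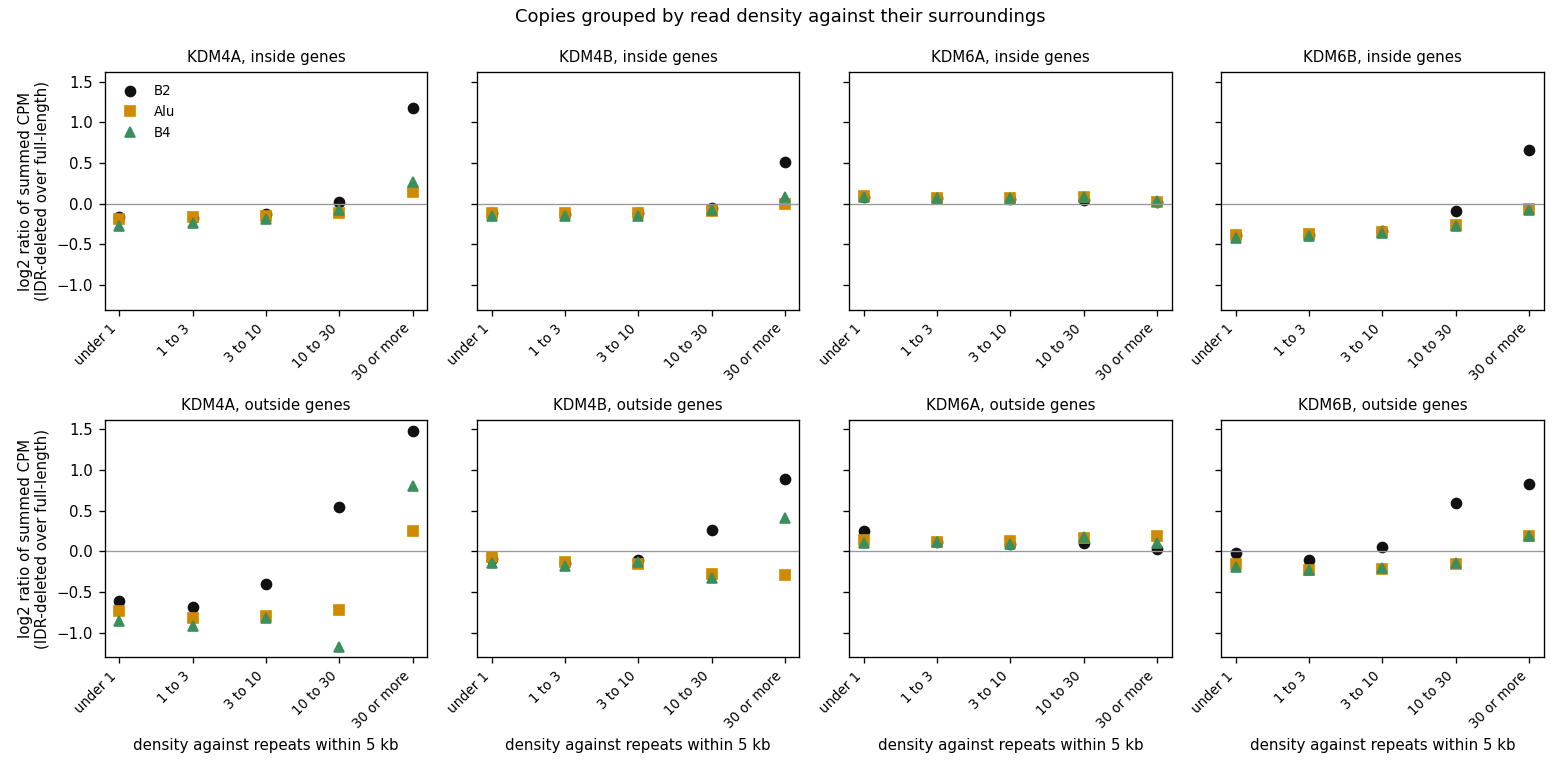
Log2 ratio of summed CPM, IDR-deleted over full-length, for B2, Alu and B4 copies inside (top) and outside (bottom) genes, by the read density of a copy over that of repeats within 5 kb, in all 16 libraries. Under gene TMM scaling B2 copies at 30 or more stand above the other families in KDM4A (1.48 outside), KDM4B (0.88) and KDM6B (0.83), and lie at 0.02 in KDM6A.

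Some other RNAs differed in the same libraries. Copies of the 7SL-related srpRNA family inside genes, also made by RNA polymerase III in their intact form, had 1413 and 1322 CPM in KDM4A del-cIDR, against 681 and 636 CPM in KDM4A FL libraries. In KDM6B del-cIDR they had 4014 and 4916 CPM, against 2978 and 3427 CPM in KDM6B FL. KDM4B del-cIDR had 639 and 633 CPM, against 548 and 528 CPM in KDM4B FL. In KDM6A del-cIDR they had 492 and 465 CPM, against 510 and 532 CPM in KDM6A FL. The log2 ratio of outside to inside srpRNA reads changed by -2.10 in KDM4A and -0.74 in KDM6B (limma, adjusted p = 3.6e-07 and 0.0016). So the srpRNA rises of KDM4A and KDM6B inside genes did not extend to copies outside genes. In KDM4B (-0.20) and KDM6A (0.31) the ratio did not pass. Reads on rRNA copies inside genes, which depend on rRNA depletion, were 5286 and 6891 CPM in KDM4A del-cIDR, against 1342 and 2577 CPM in KDM4A FL, which did not overlap. They overlapped in KDM6B, with 3897 and 6914 CPM in del-cIDR, against 3635 and 4133 CPM in FL. In KDM4B they overlapped too, with 1460 and 2707 CPM in del-cIDR, against 1145 and 1903 CPM in FL libraries. For these rRNA reads replicate 2 lay above replicate 1 in each of the 8 groups. In KDM6B and KDM4B each del-cIDR library lay above the FL library of the same number. KDM6A was mixed, with 1399 and 2534 CPM in del-cIDR, against 1568 and 2460 CPM in FL. The part of the rRNA reads in the B2 values was not tested. The Y RNA genes Rny1 and Rny3, also polymerase III genes, did not pass in any comparison (edgeR, adjusted p = 0.25 or more). In each of the 8 groups replicate 2 lay above replicate 1 for both genes, a spread that the test without a replicate term counts as error. Rny1 had 3.35 and 7.30 CPM in KDM4A del-cIDR, against 1.54 and 4.01 CPM in KDM4A FL, with a log2 fold change of 0.91 (SE 0.80). It had 2.93 and 5.94 CPM in KDM4B del-cIDR, against 1.15 and 2.68 CPM in KDM4B FL (1.23, SE 0.83). KDM6B del-cIDR had 26.5 and 31.5 CPM, against 8.32 and 16.2 CPM in KDM6B FL (1.24, SE 0.66), and KDM6A was at -0.0023 (SE 0.90). In these 3 demethylases each del-cIDR library lay above the FL library of the same number.

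B2 reads on chromosome 6 moved with the whole chromosome. They were 5.58% and 5.59% of B2 reads in KDM4B del-cIDR, against 7.47% and 7.45% in KDM4B FL libraries. In KDM6A del-cIDR they were 5.63% and 5.67%, against 6.42% and 6.45% in KDM6A FL. The B2 sum of chromosome 6 had a log2 fold change of -0.53 in KDM4B (SE 0.023, edgeR, adjusted p = 1.8e-13, 41.2% of 1098 family and chromosome sums called), while the other autosomes lay between -0.23 and -0.02. In KDM6A it was -0.11 (adjusted p = 0.0022, 19.5% called), and the others lay between 0.04 and 0.13, all smaller than the ERCC shift. Genes did likewise, with a median log2 fold change of -0.37 on chromosome 6 in KDM4B, against -0.09 to 0.08 on the other autosomes, and -0.18 in KDM6A, against -0.02 to 0.04. Copy number of chromosome 6 was not tested. Without chromosome 6 the B2 sum inside genes was -0.09 in KDM4B (adjusted p = 0.0032). On the gene scale, 17 of 19 autosomes passed with lower B2 sums in KDM4A (65.1% of sums called) and all 19 in KDM6B (56.8% called). The shift under TMM over the repeat sums turns all 19 in KDM4A. In KDM6B it turns chromosomes 5, 7, 8, 9, 10, 11, 15, 16, 17 and 19, which lay between -0.30 and -0.21.

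**Figure D5:**
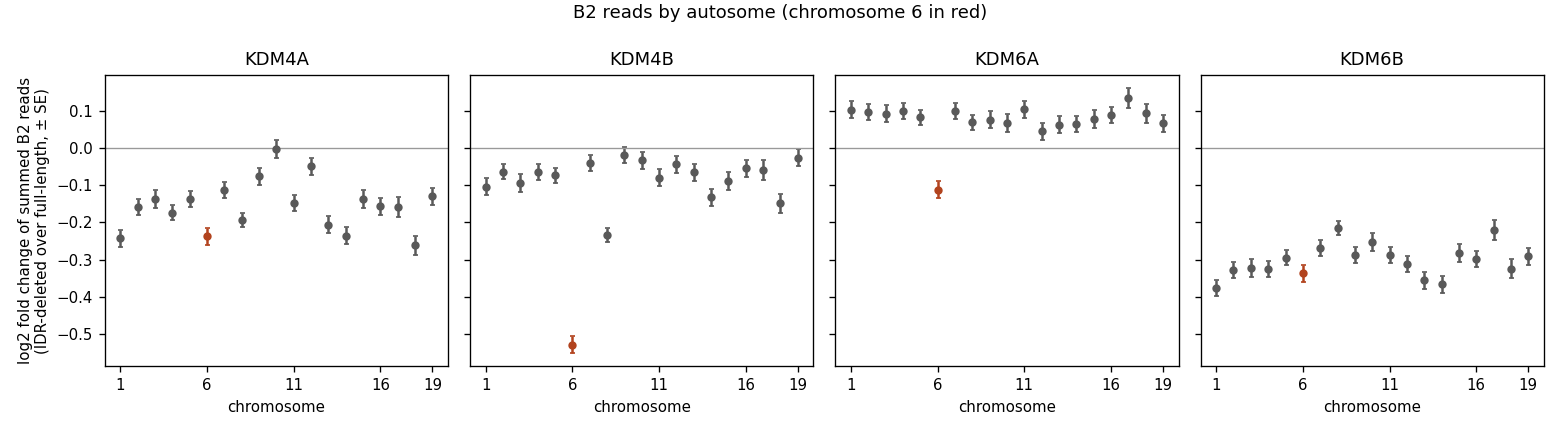
Log2 fold change of summed B2 reads, IDR-deleted over full-length, with its SE, for 19 autosomes and 4 demethylases under gene TMM scaling. Chromosome 6, in red, lies below all others in KDM4B (-0.53) and KDM6A (-0.11).

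Genes for RNA polymerase III, which transcribes intact B2 copies, and for factors linked to it moved in both directions. Of 31 such genes, 13 rose and 8 fell in KDM4A del-cIDR, against 24.6% and 25.9% of all 31057 genes tested. In KDM4B del-cIDR 10 rose and 7 fell (background 18.6% and 17.6%), in KDM6A del-cIDR 9 rose and 4 fell (8.30% and 8.65%), and in KDM6B del-cIDR 1 rose and 8 fell (9.89% and 10.7%). The list medians were 0.10, 0.01, 0.07 and -0.09 in log2, beside -0.05, 0.01, 0.00057 and 0 over all genes. Gtf3c5, a subunit of the factor that binds the B box, had a log2 fold change of 1.14 in KDM4A, with 62.9 CPM in KDM4A del-cIDR and 28.5 CPM in KDM4A FL. Gtf3c1, the subunit that contacts the B box, had 0.59 in KDM4A and -0.28 in KDM6B. Snapc4, of the same snRNA complex as Snapc3, had 0.74 in KDM4A, 0.56 in KDM4B and -0.31 in KDM6A. Ssb, the La protein that binds new polymerase III transcripts, had 0.71 in KDM4A and 0.32 in KDM4B. The named falls were Polr3a (-0.41) and Gtf3c6 (-0.57) in KDM4B, and Polr3c (-0.46), Polr3f (-0.38) and Snapc3 (-0.22) in KDM6B. In KDM6A, Gtf3c6 (0.39), Polr3f (0.31) and Polr3b (0.20) rose. Each of these passed at an adjusted p under 0.05 in edgeR, on the gene scale. For all genes named here and below, a positive value smaller than the ERCC shift of its comparison turns negative under that scaling.

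Of 23 tested genes for chromatin factors linked to SINEs, 11 rose and 8 fell in KDM4A del-cIDR, 4 rose and 12 fell in KDM4B, 7 rose and 1 fell in KDM6A, and 2 rose and 5 fell in KDM6B. Over all genes 24.6% rose and 25.9% fell in KDM4A, 18.6% and 17.6% in KDM4B, 8.30% and 8.65% in KDM6A, and 9.89% and 10.7% in KDM6B. The list medians were 0.09, -0.13, 0.08 and 0.03, beside all-gene medians of -0.05, 0.01, 0.00057 and 0. Suv39h1, a methyltransferase of H3K9, had log2 fold changes of -1.14 in KDM4A, -0.77 in KDM4B and 0.44 in KDM6A. Mphosph8, of the HUSH silencing complex, had 1.07 in KDM4A, and Dnmt1, the maintenance DNA methyltransferase, 0.53. Ctcf had -0.43 and Cbx5, which encodes HP1 alpha, -0.52 in KDM4B. Chd4, of the ChAHP complex that binds SINEs in mouse cells, had 0.23 in KDM6A and -0.25 in KDM6B. Adnp2 (0.52 in KDM4B), Rad21 (0.50 in KDM4A), Trim28 (0.27 in KDM6A), Pogz (-0.28), Cbx1 (0.33) and Fam208a (0.26, all 3 in KDM6B) also passed.

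Of 18 heat-shock genes, 14 rose and 1 fell in KDM4A del-cIDR, 5 rose and 5 fell in KDM4B, 8 rose and 3 fell in KDM6A, and 7 rose and 0 fell in KDM6B. Rises and falls over all genes were 24.6% and 25.9% for KDM4A, 18.6% and 17.6% for KDM4B, 8.30% and 8.65% for KDM6A, and 9.89% and 10.7% for KDM6B. The list medians were 0.46, 0.01, 0.14 and 0.12, beside -0.05, 0.01, 0.00057 and 0 over all genes. Hspa1b, an inducible chaperone gene, had 32.5 CPM in KDM4A del-cIDR and 7.73 CPM in KDM4A FL (log2 fold change 2.07). Hsp90aa1 had 3306 CPM in KDM4A del-cIDR and 1482 CPM in KDM4A FL (1.16), and 0.56 in KDM4B. Hspa4l (1.53) and Dnajb1 (1.23) rose in KDM4A, and Hsph1 had -0.76 in KDM4B. In KDM6B, Hsp90ab1 (0.33), Hspb1 (0.38), Stip1 (0.22) and Hspe1 (0.30) rose. In KDM6A, Hspd1 had 0.42 and Hsp90ab1 0.38. The heat-shock medians of all 4 demethylases are below the size of their ERCC shifts, so they turn under that scaling.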

How the data were processed

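Chromatin-associated RNA was sequenced from 16 libraries in 8 groups of 2. Per the file headers, the deposited values are raw read counts per gene and per single repeat copy, made with featureCounts 2.0.3 from HISAT2 alignments at a minimum mapping quality of 30. Each read of a pair was counted, strand was ignored, and reads with several places or features were left out. Per the submitters' processing notes the build was GRCm39. A copy was inside a gene when it overlapped a gene span of the gene table.

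Libraries were scaled by TMM over genes, and CPM are reads per 1000000 effective gene reads. Summed reads per family, single copies and genes were tested with edgeR 4.0.16 (quasi-likelihood, 8 group means, filterByExpr) in R 4.3.3. Each fit was adjusted by Benjamini-Hochberg over all its features at 0.05, and 728423 copies of all families and 31057 genes were tested. Outside-to-inside ratios were tested with limma 3.58.1 at a pseudocount of 0.5 over 39 families. Shares and ratios between families were tested by exact permutation within demethylases. Alternatives were DESeq2 1.42.0, other scalings, filters, gene spans and left-out libraries. Those without chromosome 6 and without copies carried by 1 library were chosen after seeing the data.

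Copies named are the 3 of highest mean CPM, the 3 largest rises and falls in each comparison among called copies reaching 1 CPM in the higher group without overlap, and the 3 of smallest p across groups, each inside and outside genes. Genes named are up to 4 per list and comparison with the smallest p. The members, lists and classes were chosen with earlier results of these data known.

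The tests were tested on simulated data for KDM4A. The single-copy test recovered 20.8% of 144 copies changed 4-fold among 38330, and the sum test 77.8% of 9 sums changed 1.25-fold among 114. The simulated counts had an assumed, fixed spread and no shift by replicate number, so these rates need not hold for the real libraries. Replicates had correlations of log2 CPM of 0.913 to 0.944. Same-numbered libraries deviated together with correlations of 0.015 to 0.076, so the numbers were not taken as pairs. Some sums did follow the number. In each of the 8 groups, B4 sums and dense B2 sums outside genes were higher in replicate 2. So were Rny1, Rny3 and the rRNA and snRNA reads on copies inside genes. The permutation tests and the ratios of dense copies hold no replicate term.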

Additional observations from a re-analysis of the deposited data

Results flagged for a closer look

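The effect of the deletion on B2 sums differed between demethylases of the same family. Outside genes the log2 fold change was lower in KDM4A than in KDM4B by a difference of -0.22 (SE 0.072, edgeR, adjusted p = 0.024, 53.5% of 114 sums called), with -0.28 in KDM4A and -0.06 in KDM4B. The difference was -0.16 without KDM4A del-cIDR replicate 1 (adjusted p = 0.093), -0.20 without KDM4A FL replicate 2 (adjusted p = 0.079), -0.19 without KDM4B del-cIDR replicate 2 (adjusted p = 0.087) and -0.19 without KDM4B FL replicate 1 (adjusted p = 0.080). It was 0.07 under TMM over the repeat sums (adjusted p = 0.46).

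Inside genes the log2 fold change was higher in KDM6A than in KDM6B by 0.42 (SE 0.028, edgeR, adjusted p = 2.2e-07, 53.5% of sums called), with 0.07 in KDM6A and -0.35 in KDM6B. Leaving out single libraries gave 0.40 to 0.44, and TMM over the repeat sums gave 0.05 (adjusted p = 0.084).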

How the results depend on the processing

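Scaling moved B2 sums most. TMM over the repeat sums gave 0.33 and 0.20 for KDM4A inside and outside genes, 0.071 and 0.13 for KDM4B, 0.0067 for KDM6A inside and 0.43 for KDM6B outside. It gave differences of 0.26 inside and 0.070 outside for KDM4A minus KDM4B, and 0.053 and -0.36 for KDM6A minus KDM6B. ERCC scaling gave -0.25 for KDM4B outside, -0.15 and -0.077 for KDM6A inside and outside, -0.25 for KDM6B outside and -0.50 for KDM4A minus KDM4B inside. It called 33849 inside and 5878 outside copies in KDM4A, 4807 inside in KDM4B, 72 inside in KDM6A, and 20964 and 1273 in KDM6B. The Rian copy was then at -0.013 in KDM6B and the chromosome 7 copy named for KDM6A at -0.064 in KDM4A. The cause was not tested.

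With spans extended by 5 kb, outside sums were -0.10 in KDM4A and 0.31 in KDM6B, the outside-to-inside ratio 0.060 in KDM4A and -0.040 in KDM4B, and outside calls 1323, 330 and 168 in KDM4A, KDM4B and KDM6B. With only the libraries compared, KDM6A was at 0.069 inside (adjusted p = 0.10) and 0.14 outside (adjusted p = 0.014), and KDM6B had 2495 inside calls. Members alone gave 0.15 outside in KDM6A (adjusted p = 0.042) and 0.13 in KDM6B (adjusted p = 0.033). Without the top 1% of copies KDM6A inside was 0.066 (adjusted p = 0.11), and without exonic copies KDM6B outside was 0.13 (adjusted p = 0.043). DESeq2 gave 0.13 for KDM6B outside (adjusted p = 0.049), and 2833 inside and 189 outside calls in KDM6B.

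With the replicate number as a block, outside sums passed in KDM6A (0.14, adjusted p = 0.029) and KDM6B (0.13, adjusted p = 0.0096), and KDM6A calls were 90 inside and 26 outside. Gene calls under the block were 16057, 11908, 6055 and 7291 in KDM4A, KDM4B, KDM6A and KDM6B, against 15672, 11240, 5265 and 6406 without it. The block changed no other call on B2 sums, ratios or named copies.

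Leaving out 1 library gave sums of -0.17 to -0.13 inside and -0.34 to -0.22 outside in KDM4A, -0.14 to -0.097 and -0.092 to -0.028 in KDM4B, 0.052 to 0.087 and 0.13 to 0.15 in KDM6A, and -0.36 to -0.34 and 0.048 to 0.21 in KDM6B. Differences were -0.050 to -0.011 inside and -0.28 to -0.16 outside for KDM4A minus KDM4B, and 0.40 to 0.44 and -0.077 to 0.090 for KDM6A minus KDM6B. Ratios were -0.17 to -0.092, 0.038 to 0.076, 0.043 to 0.095 and 0.39 to 0.58 in KDM4A, KDM4B, KDM6A and KDM6B. Copies called were 9255 to 9755 inside and 2179 to 2307 outside in KDM4A, 1117 to 1315 and 295 to 352 in KDM4B, 6 to 12 and 4 to 7 in KDM6A, and 1553 to 2593 and 89 to 329 in KDM6B. The outside share difference was 0.66 to 0.94 points. B2 over Alu was -0.0029 to 0.0067 inside and 0.19 to 0.23 outside, and B2 over B4 0.031 to 0.037 and 0.17 to 0.22. The chromosome 17 copy ranged from -3.51 to 0.60 in KDM4B, the highest without KDM4B FL replicate 2, and the Frmd8 copy from -9.73 to 0.61 in KDM4A, the highest without KDM4A FL replicate 1. Of 440 values of named copies, 115 lost their call, and per left-out library these were 10 or 11 of 15 in KDM6A, 4 to 11 of 24 in KDM6B, 3 to 6 of 31 in KDM4B and 5 to 7 of 40 in KDM4A. A lone library is assumed to vary like the other groups, and copies with few reads limit these tests.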

Other observations

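Among B2 copies outside the rule, a pair near Sit1 on chromosome 4 had nearly all reads in 1 library. The copy at chr4:43487767-43487945 had 4604 reads in KDM6B FL replicate 2 and 3 in the other 15 libraries together. The copy at chr4:43469542-43469652 had 1220 reads in KDM6A del-cIDR replicate 1 and 0 in the other 15.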
